A study of Mus musculus and blank sample with 91 samples.

Results

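Fecal bacteria of EAE mice were compared with those of CFA mice on day 8 after immunization (8 dpi, where -2 dpi is 2 days before it), when the clinical score was 0 in all 12 mice. The samples labelled EAE (MOG) and CFA at day 8 were taken, 6 of each, which is 12 of 89 samples in the count table, and each difference was set against that of the same 12 mice at -2 dpi. Experimental autoimmune encephalomyelitis (EAE) is a mouse model of multiple sclerosis. EAE mice were immunized with 50 µg of a peptide of myelin oligodendrocyte glycoprotein (MOG), a protein of the myelin sheath, in Complete Freund's Adjuvant (CFA), and the labels list pertussis toxin (250 ng, on days 0 and 2) with this immunization. CFA mice, per the labels, received the adjuvant alone. The labels therefore do not allow the peptide and the toxin to be told apart. All were female C57BL/6 mice on standard food, C57BL/6J of 8 weeks at purchase per the study's methods. Mice were housed at 2 to 3 per cage and treatment was assigned by cage. The cage of a mouse was not given, so cage and treatment cannot be told apart and p-values count cage mates as independent mice.

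The bacterial 16S rRNA gene was amplified across its variable regions V3 and V4, and reads were resolved into amplicon sequence variants (ASVs), each named down to genus or species. Counts were expressed as relative abundance, the percent of a sample's counts, so a larger share of a genus leaves less for all others. The mouse gut is populated chiefly by Firmicutes, such as Lactobacillus and the spore-forming Clostridia, and by Bacteroidetes. Lactobacillus ferments sugars to lactic acid, many Lachnospiraceae and Ruminococcaceae ferment fibre to short-chain fatty acids, and Akkermansia muciniphila lives on the mucin of the gut lining. Turicibacter and Romboutsia are known from the small intestine as well as feces.

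Libraries from CFA mice at 8 dpi held 31179 to 83614 counts and 27 to 36 genera, and those from EAE mice held 9202 to 56057 counts and 3 to 33 genera. A pair of EAE libraries stood apart. EAE mouse 555 had 9202 counts in 4 ASVs of 3 genera, the rarest of which took 1147 counts, or 12.5%, and EAE mouse 551 had 17439 counts in 10 genera. The other 4 EAE libraries held 28 to 33 genera. Results are therefore given also without mice 551 and 555, a choice made after seeing the data. A floor of 3 counts, the amount that a count of 0 allows, was at most 0.0326% of a library. It covers counting error only, since PCR reads are not independent molecules. Fold changes given below as at least a value are bounds for counting error only.

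Of 65 genera tested, 17 differed between EAE and CFA mice at 8 dpi, which is 26.2%, with 8 genera (12.3%) higher and 9 (13.8%) lower in EAE mice (edgeR quasi-likelihood test, Benjamini-Hochberg adjusted). In the same test 2 genera (3.08%) differed at -2 dpi, Akkermansia and Peptococcus-rc4-4, and both were higher in EAE mice on both days. The change since -2 dpi differed between the treatments for 8 genera (12.3%). With the mouse as a block, 0 of the 50 genera that could be fitted passed for the change, while 6 had an unadjusted p below 0.05, and DESeq2 called 15. Without mice 551 and 555, 7 genera passed at 8 dpi, all among the 17: Turicibacter, Clostridium_sensu_stricto_1, Romboutsia, Akkermansia, Ruminiclostridium, Peptococcus-rc4-4 and Stomatobaculum. All of these and Anaeroplasma passed also when any 1 of the 12 mice was left out. Exact permutation tests of mean percents, two-sided over all 924 groupings of the mice and adjusted over 65 genera, gave no genus past 0.05 at 8 dpi, with a lowest adjusted p of 0.0703. Unadjusted, 7 genera were below 0.05 in this test. Its smallest possible p is 0.00216. Stomatobaculum and Anaerostipes reached it, and 0.0703 is the lowest adjusted p possible for 2 genera alone. The adjusted test could therefore not pass on these 2 genera. For a genus at 0 in all mice of 1 group, p at 8 dpi depends only on how many mice had counts.

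Turicibacter, a member of the Erysipelotrichaceae, was at 0 in all 6 CFA mice at 8 dpi. It was at 23.4, 17.0, 9.43 and 5.11% in EAE mice 550, 557, 553 and 556, and at 0 in mice 551 and 555. The mean in EAE mice was 9.17% ± 9.49 (SD, n = 6), at least 1774-fold higher than the mean floor of the CFA libraries (edgeR, adjusted p = 1.14e-06). An exact permutation test of the percents at 8 dpi did not pass, with the same p as given below for Clostridium_sensu_stricto_1. Before immunization every mouse of both groups carried Turicibacter, at 4.53 to 17.2% in CFA mice and 9.13 to 35.9% in EAE mice. The CFA group went from 11.4% ± 5.57 (SD, n = 6) to 0 in 6 of 6 mice, a fall of at least 2210-fold. The EAE mean fell too, from 17.8 to 9.17%, with mice 551 and 555 at 0 and the other 4 keeping counts. The change since -2 dpi differed between the treatments (edgeR, adjusted p = 9.17e-06, and 0.153 with the mouse as a block). Mean change in percentage points did not pass an exact permutation test (2.78 points, p = 0.710), and 5 of 6 EAE mice also had a lower percent than at -2 dpi. Naïve mice, which were not immunized, carried 4.14 to 40.1% Turicibacter at 8 dpi, with counts in 6 of 6. Nearly all EAE counts came from a single sequence named Turicibacter sanguinis.

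Clostridium_sensu_stricto_1, the genus of the Clostridiaceae proper, had the same distribution over mice as Turicibacter. It was at 0 in 6 of 6 CFA mice at 8 dpi, and at 10.7, 6.37, 6.25 and 4.47% in EAE mice 550, 556, 557 and 553. Mice 551 and 555 were again at 0. The EAE mean of 4.64% ± 4.14 (SD, n = 6) was at least 897-fold higher (edgeR, adjusted p = 0.000385). An exact permutation test of the percents at 8 dpi gave p = 0.0606 (adjusted p = 0.362). At -2 dpi all 12 mice had counts, 0.410 to 2.93% in CFA mice and 0.345 to 2.75% in EAE mice, and the means of 1.59% and 1.41% overlapped in spread. Here both groups moved, CFA mice to 0 and the 4 EAE mice to more than their own percent at -2 dpi. The change differed between treatments by 4.81 percentage points (exact permutation test, p = 0.00433, adjusted p = 0.141). In edgeR the adjusted p of the change was 0.000950, and 0.153 with the mouse as a block. In naïve mice at 8 dpi, counts were found in 2 of 6, at up to 0.164%.

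Romboutsia, of the Peptostreptococcaceae, was seen in 2 EAE mice at 8 dpi. Mouse 550 had 8.84% and mouse 557 had 7.46%, and the other 4 EAE mice and all CFA mice were at 0. The EAE mean was at least 526-fold higher (edgeR, adjusted p = 0.00218). With counts in only 2 mice, the percents at 8 dpi could not pass an exact permutation test (p = 0.455, adjusted p = 0.821). The same 2 EAE mice were the ones with counts at -2 dpi, at 1.90 and 1.27%. CFA mice had carried Romboutsia in 6 of 6 at -2 dpi, at 0.565 to 4.68%, so the order of the groups was opposite before immunization (exact permutation test, p = 0.0216, adjusted p = 0.469). No mouse had the genus at 8 dpi that lacked it at -2 dpi. The change since -2 dpi differed by 5.04 percentage points (exact permutation test, p = 0.00216, adjusted p = 0.141), and edgeR gave an adjusted p of 0.00133, or 0.153 with the mouse as a block. Romboutsia was at 0 in the naïve mice at 8 dpi.

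**Figure D1:**
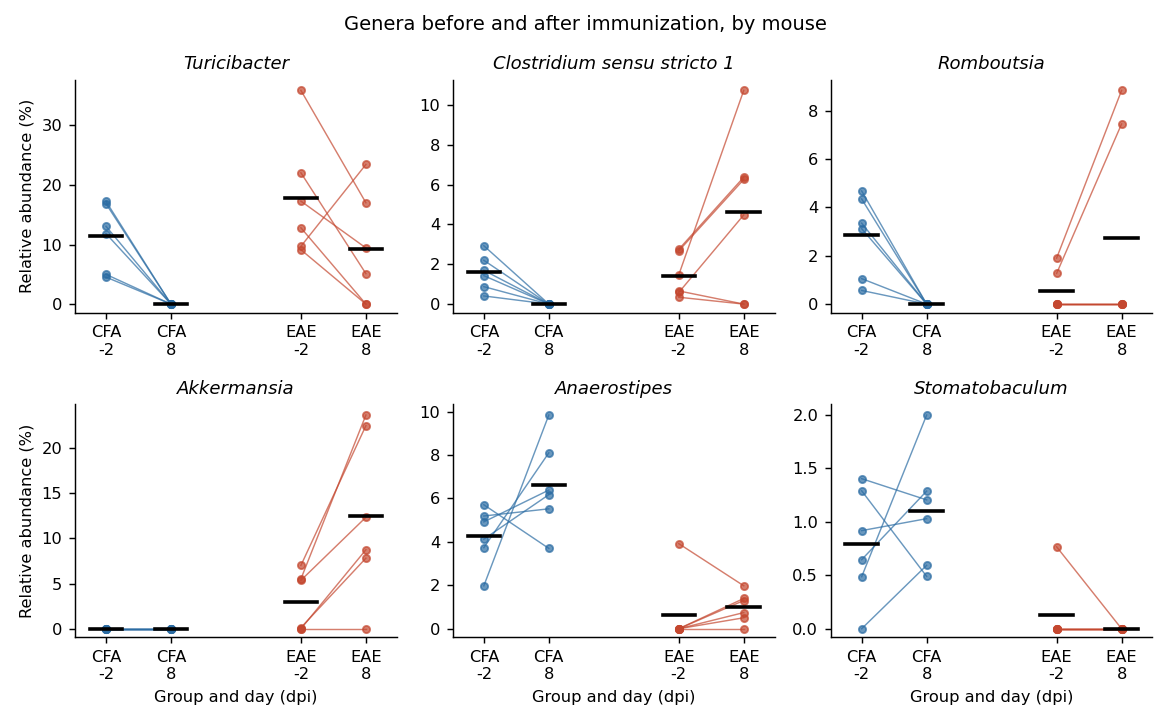
Relative abundance (%) of 6 genera in each mouse at -2 and 8 dpi, with a line joining the samples of a mouse and a black bar at the group mean (n = 6). Turicibacter, Clostridium_sensu_stricto_1 and Romboutsia reach 0 in every CFA mouse at 8 dpi, Akkermansia is at 0 in CFA mice on both days, and Anaerostipes and Stomatobaculum are higher in every CFA mouse than in any EAE mouse at 8 dpi.

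Akkermansia, the mucin degrader, was at 0 in CFA mice at 8 dpi, and at 23.7, 22.5, 12.3, 8.74 and 7.81% in EAE mice 551, 553, 557, 550 and 556. Mouse 555 was at 0. The EAE mean of 12.5% ± 9.13 (SD, n = 6) was at least 2420-fold higher (edgeR, adjusted p = 0.000148; exact permutation test, p = 0.0152, adjusted p = 0.197). This difference was present before immunization. CFA mice were at 0 in 6 of 6 at -2 dpi, and EAE mice had 7.01, 5.51, 5.36 and 0.122% in 4 of 6 (edgeR, adjusted p = 0.00123). All 5 EAE mice with counts at 8 dpi had a higher percent than at -2 dpi, a mean difference in change of 9.50 percentage points (exact permutation test, p = 0.0152, adjusted p = 0.197). On the log scale of edgeR, where CFA mice have no counts on either day, the change did not pass (adjusted p = 1.00). No CFA mouse had Akkermansia counts at 14, 19 or 29 dpi either, while naïve mice had them in 3 of 6 at 8 dpi, at up to 10.0%. All Akkermansia sequences were named Akkermansia muciniphila.

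Ruminiclostridium, a genus that holds cellulose degraders, was at 3.17, 3.16 and 1.28% in EAE mice 550, 553 and 556 at 8 dpi and at 0 in the other 9 mice. Its EAE mean was at least 245-fold higher (edgeR, adjusted p = 0.0101), and an exact permutation test gave p = 0.182 (adjusted p = 0.563). At -2 dpi it was seen in 2 CFA mice, at up to 0.312%, and in no EAE mouse, and the change passed in edgeR (adjusted p = 0.000902, and 0.359 with the mouse as a block). Blautia, an acetate-forming genus of the Lachnospiraceae, was found in the same 3 EAE mice at 0.680, 0.398 and 0.310% and in no CFA mouse (edgeR, adjusted p = 0.0402, and exact permutation test, p = 0.182). Of its EAE counts, 34.2% lay in sequences that also carried the name Lachnospiraceae_NA. Peptococcus-rc4-4, of the Peptococcaceae, was found in EAE mice 556 and 553 at 0.581 and 0.357% and in no CFA mouse (edgeR, adjusted p = 0.0158, and exact permutation test, p = 0.455). At -2 dpi it was found in 3 EAE mice and no CFA mouse (edgeR, adjusted p = 0.0332). Lachnospiraceae_UCG-001 passed the test on the counts of a single EAE mouse, 556, with 1.68% (adjusted p = 0.0402), all of them in a sequence that also carried the name Roseburia.

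Of the genera that were lower in EAE mice, Stomatobaculum was found in every CFA mouse and in no EAE mouse. This genus of the Lachnospiraceae was at 0.489 to 1.99% in CFA mice, with a mean of 1.10% ± 0.545 (SD, n = 6), and at 0 in 6 of 6 EAE mice. It was at least 89.9-fold lower in EAE mice (edgeR, adjusted p = 0.00355; exact permutation test, p = 0.00216, adjusted p = 0.0703). Before immunization it was found in 5 CFA mice and 1 EAE mouse (exact permutation test, p = 0.0411, adjusted p = 0.535). Fewer EAE than CFA mice thus carried it before immunization too. The edgeR change passed at an adjusted p of 0.0357, and not with the mouse as a block (0.459). Every Stomatobaculum count lay in a sequence that elsewhere carried the name Lachnospiraceae_NK4A136-Clostridium XlVa. Taken under both names, this sequence was at 1.03 to 4.42% in the CFA mice and at 0 in the EAE mice (adjusted p = 0.0191). Naïve mice had no Stomatobaculum at either day.

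Anaerostipes, a butyrate producer, was the other genus in which the groups did not overlap at 8 dpi. Genera without overlap were 2 of 65 tested, 3.08%, and at -2 dpi there were none. It was at 3.70 to 9.84% in CFA mice, with a mean of 6.62% ± 2.12 (SD, n = 6), and at 0 to 1.98% in EAE mice, with a mean of 0.986% ± 0.709 (SD, n = 6), a 6.71-fold difference of the means. It reached the smallest p of the exact permutation test (p = 0.00216, adjusted p = 0.0703) and did not pass edgeR (adjusted p = 0.404). CFA mice were higher at -2 dpi as well, at 1.97 to 5.71% in 6 of 6, against 1 EAE mouse with 3.92% (exact permutation test, p = 0.00649, adjusted p = 0.352). Part of the EAE counts carried the name of another genus. The sequence that made up Anaerostipes in CFA mice was found in 2 of 6 EAE mice, 550 and 551. The values of mice 553, 556 and 557, at 0.505 to 1.30%, came from a sequence that was named Coprococcus in other ASVs. No naïve mouse had Anaerostipes at 8 dpi.

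Anaeroplasma, a wall-less genus of the Mollicutes, was at 1.81, 1.55, 0.833 and 0.453% in 4 CFA mice at 8 dpi and at 0 in all EAE mice, at least 63.3-fold lower (edgeR, adjusted p = 0.0101). At -2 dpi it was found in 3 CFA and 2 EAE mice. The adjusted p was 0.0502 without mice 551 and 555, and that of the change was 0.0404, or 0.475 with the mouse as a block. The remaining genera that were lower in EAE mice were found in 2 or 3 CFA mice and no EAE mouse at 8 dpi. They were Clostridiales_vadinBB60_NA at up to 1.10% (adjusted p = 0.0286), Anaerotignum-Clostridium XlVb at up to 0.675% (0.0368), Christensenella, Erysipelatoclostridium-Clostridium XVIII and Intestinimonas/Ruminiclostridium_9 at up to 0.574, 1.10 and 0.229% (0.0402 for each) and Marvinbryantia at up to 0.728% (0.0443). Each of these 6 lost its call when certain single mice were left out, which held for 3 to 10 of the 12 mice, as it did for 10 with Blautia and with Lachnospiraceae_UCG-001. All Christensenella counts lay in a sequence that was also named Clostridiales_vadinBB60_NA.

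Lactobacillus was the most abundant genus and differed by a smaller factor. It was at 6.42 to 57.7% in CFA mice, with a median of 30.6% and a mean of 29.9% ± 20.5 (SD, n = 6), and at 3.97 to 39.5% in EAE mice, with a median of 11.7% and a mean of 14.5% ± 13.1 (SD, n = 6). The groups overlapped widely. The log2 fold change was -2.42 ± 0.956 (SE; edgeR, adjusted p = 0.0490), and an exact permutation test of the percents gave p = 0.141 (adjusted p = 0.563). The edgeR call was lost when any of 9 of the 12 mice was left out, without mice 551 and 555 together (adjusted p = 0.124), and when libraries were scaled by total counts only (0.605). At -2 dpi the groups had 38.1% ± 11.9 and 31.5% ± 8.26 (SD, n = 6). The change since then did not pass (edgeR, adjusted p = 0.867; exact permutation test, p = 0.351). Of the EAE mice, 5 of 6 had less Lactobacillus at 8 dpi than at -2 dpi and mouse 555 had more, and its 39.5% was one of the 3 genera in its library. Nearly all Lactobacillus counts were named Lactobacillus johnsonii.

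**Figure D2:**
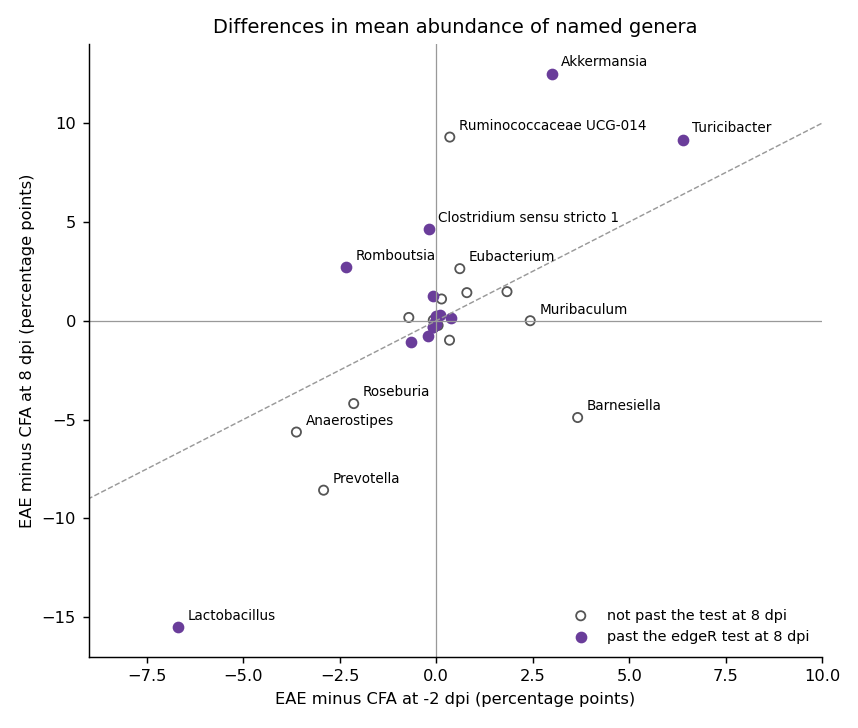
Difference in mean relative abundance, EAE minus CFA in percentage points, at 8 dpi (vertical) against -2 dpi (horizontal) for the genera named here, with filled points for those past the edgeR test at 8 dpi and a dashed line of equal differences. Akkermansia is at 12.5 points at 8 dpi and 3.00 at -2 dpi, whereas Clostridium_sensu_stricto_1 lies near 0 at -2 dpi and Lactobacillus is below 0 on both days.

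Prevotella and Barnesiella, of the Bacteroidales, were for the most part a single sequence. After the primers, which had been left in the ASVs, were removed, 34 ASVs had the same sequence, of which 5 were named Barnesiella and 29 Prevotella. They held 98.1% of the counts of both genera in the 24 samples. The names gave different pictures. As Barnesiella alone, counts were found in 5 CFA mice and 1 EAE mouse at 8 dpi, with means of 5.31 and 0.413% (exact permutation test, p = 0.0152, adjusted p = 0.197; edgeR, adjusted p = 0.450). As Prevotella alone, CFA mice had 6.29 to 26.6% and EAE mice 0 to 12.3% (exact permutation test, p = 0.0693). Summed over both names, a step added after seeing the data, CFA mice had 14.6 to 33.9%, with a median of 19.7% and a mean of 21.7% ± 7.02 (SD, n = 6). EAE mice had 0 to 14.1%, with a median of 11.6% and a mean of 8.28% ± 6.48 (SD, n = 6), and mice 551 and 555 were at 0. The groups did not overlap and differed by -13.5 percentage points (exact permutation test, p = 0.00216, not adjusted). At -2 dpi they differed by 0.747 points (p = 0.807, exact permutation test) and overlapped.

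The change of the summed genera since -2 dpi differed by -14.2 points (exact permutation test, p = 0.0390). Without mice 551 and 555 the difference at 8 dpi was -9.33 points (p = 0.0238, exact permutation test) and that of the change -6.61 points (p = 0.190). In edgeR the sequence had a log2 fold change of -1.71 and an adjusted p of 0.555, so it did not pass in the fit over all sequences.

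**Figure D3:**
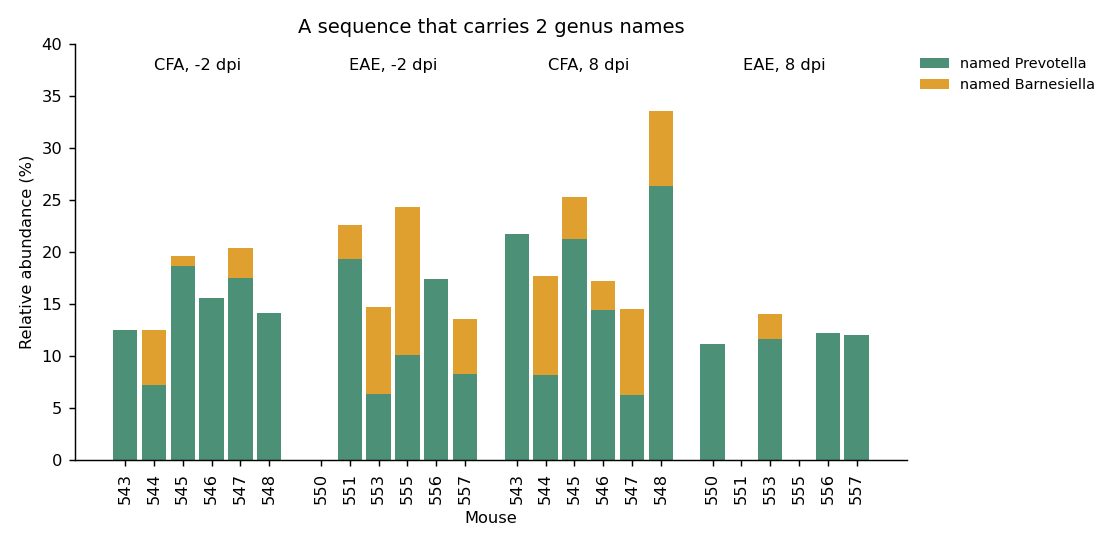
Relative abundance (%) in each of 24 samples of the sequence shared by Prevotella and Barnesiella, with the part under each name stacked. The split between names varies from mouse to mouse, and the whole bar is higher in every CFA mouse than in every EAE mouse at 8 dpi and overlaps at -2 dpi.

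The genera were also read by lists of shared function or family, against shares of 12.3% called higher and 13.8% called lower over all genera tested. Sums of percents over a list are given as descriptions, with no test. Of 11 butyrate producers with counts, 0 were higher and 1 lower in EAE mice, Intestinimonas/Ruminiclostridium_9, and their median difference in mean percent was -0.0762 points, beside -0.0301 over all genera. Roseburia, another butyrate producer, had a mean of 5.90% in CFA mice and 1.71% in EAE mice and did not pass (edgeR, adjusted p = 0.763). Summed, the butyrate producers took 8.46 to 27.3% in CFA mice and 3.88 to 15.8% in EAE mice, with means of 17.8 and 10.1%. Their sum was lower in EAE mice at -2 dpi too, with means of 12.7% in CFA and 7.59% in EAE mice. Of 3 fibre degraders, 1 was higher (Ruminiclostridium), with a median difference of 1.10 points. Their sum, which Prevotella leads, ran the other way, with a mean of 18.4% (8.20 to 32.1) in CFA mice and 12.2% (0 to 18.3) in EAE mice, and at -2 dpi the means were 15.1 and 12.3%. Romboutsia and Clostridium_sensu_stricto_1, listed together for Peptostreptococcaceae and Clostridiaceae, were both higher, and together took 0 in CFA mice and 0 to 19.6% in EAE mice. At -2 dpi their sum was higher in CFA mice, with means of 4.44 and 1.94%. The files place also Butyricicoccus, listed here with the butyrate producers, in the Clostridiaceae. It was found at 8 dpi in CFA mouse 544 alone, at 0.715%, and did not pass (edgeR, adjusted p = 0.0574). None of 3 Bacteroidales tested passed at 8 dpi (edgeR). Of 4 Erysipelotrichaceae tested, 1 was higher (Turicibacter) and 1 lower (Erysipelatoclostridium-Clostridium XVIII). Of both lactic acid bacteria with counts, Lactobacillus was lower and Enterococcus did not pass. Of 2 Mollicutes tested, Anaeroplasma was lower. Among 11 genera that the study names and that had counts, 3 were higher and 3 lower, with a median difference of 0.0485 points. The study chose these on the same samples, so their direction is not independent evidence.

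At the level of families, 9 of 23 differed at 8 dpi (39.1%, edgeR), 5 higher (21.7%) and 4 lower (17.4%) in EAE mice. At -2 dpi 2 families differed (8.70%), and the change differed for 1 (4.35%). Higher were Verrucomicrobiaceae (adjusted p = 0.000500), Peptostreptococcaceae (0.00334), Peptococcaceae (0.0121), Erysipelotrichaceae (0.0186) and Clostridiaceae (0.0300), the families of Akkermansia, Romboutsia, Peptococcus-rc4-4, Turicibacter and Clostridium_sensu_stricto_1. Erysipelotrichaceae were at 0 to 1.10% in CFA mice and 0 to 24.2% in EAE mice, and Clostridiaceae at 0 to 0.715% and 0 to 10.7%. Lower were Anaeroplasmataceae (0.0117), Clostridiales_vadinBB60 (0.0185), Lactobacillaceae (0.0186) and Christensenellaceae (0.0218). Without the pair of EAE libraries set apart above, 6 of these 9 families kept their edgeR call. Clostridiales_vadinBB60 (adjusted p = 0.0529), Lactobacillaceae (0.0605) and Christensenellaceae (0.0629) lost it. Lactobacillaceae also lost it in DESeq2 (0.154), by total counts only (0.340) and without CFA mouse 546. Clostridiaceae lost it when any of 5 CFA mice was left out. No family was without overlap between the groups (0%). The large fermenting families did not pass. Lachnospiraceae had 33.0% ± 13.5 in CFA mice and 22.1% ± 17.9 (SD, n = 6) in EAE mice (edgeR, adjusted p = 0.167), and Ruminococcaceae had 10.3% ± 3.72 and 20.6% ± 15.1 (adjusted p = 1.00). No family passed the adjusted exact permutation test at 8 dpi, where the lowest adjusted p was 0.174. For the change since -2 dpi 3 families passed (adjusted p = 0.0498 for each), Clostridiaceae by 4.68 points, Peptostreptococcaceae by 5.04 points and Porphyromonadaceae, the family of Barnesiella, by -8.56 points. The last is subject to the split of names described for Barnesiella. In edgeR the change of Peptostreptococcaceae had an adjusted p of 0.00430, and 0.0907 with the mouse as a block.

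**Figure D4:**
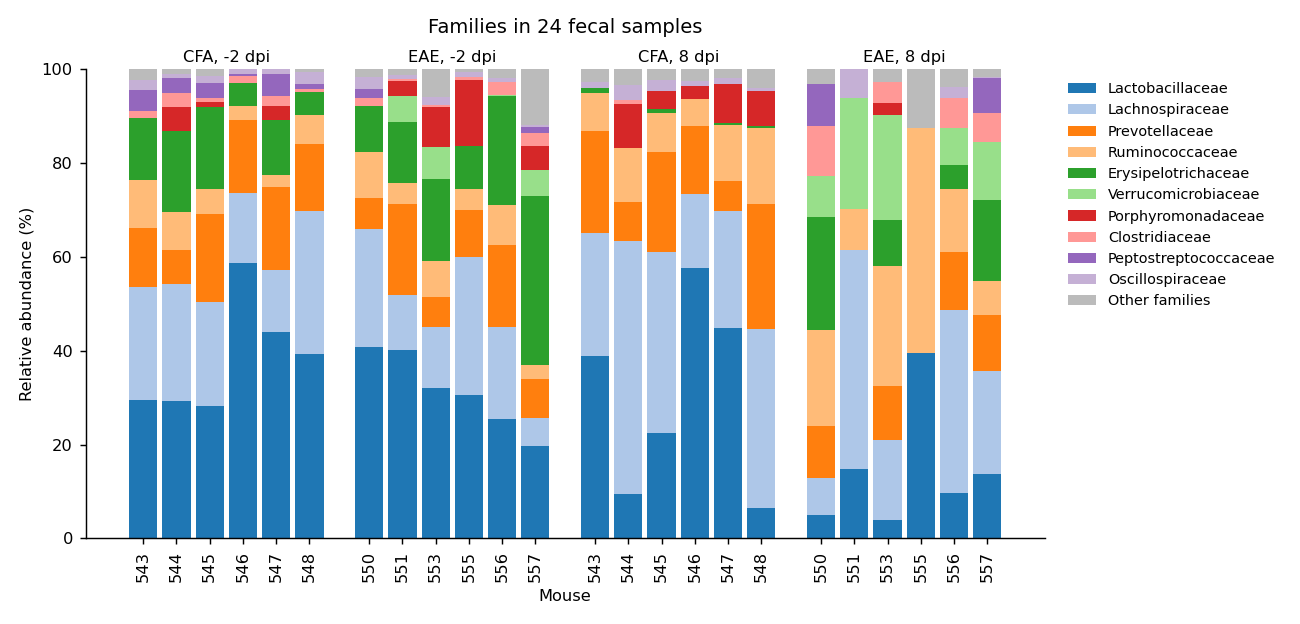
Relative abundance (%) of the 10 most abundant families and all others in each of 24 samples, grouped by treatment and day. Verrucomicrobiaceae appear in EAE mice on both days, Erysipelotrichaceae are at 1.10% or less in the CFA mice at 8 dpi, and EAE mouse 555 at 8 dpi holds 3 families.

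Sequences of a genus could differ in opposite directions. After primer removal 203 sequences were tested, and 16 differed at 8 dpi (7.88%), against 1 at -2 dpi (0.493%) and 18 for the change (8.87%). The lowest adjusted p belonged to the chief sequences of Turicibacter (2.01e-08), Akkermansia (3.33e-06), Clostridium_sensu_stricto_1 (0.00152) and Romboutsia (0.00874). Ruminococcaceae_UCG-014, a genus-level group of the Ruminococcaceae, did not pass as a whole, with 2.19 to 5.50% in CFA mice and 0 to 48.0% in EAE mice (edgeR, adjusted p = 1.00). One of its sequences was found in 3 EAE mice, at 48.0, 15.1 and 3.92% in mice 555, 553 and 550, and in no CFA mouse (adjusted p = 0.0145). It was not seen in any of the 12 mice at -2 dpi. Another was at 0.589 to 2.18% in 6 of 6 CFA mice and at 0 in 6 of 6 EAE mice (adjusted p = 0.0238). It had been found in 1 CFA mouse and 3 EAE mice at -2 dpi. These 2 sequences were 92.6% identical, with 30 changed bases of 403.

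Eubacterium did not pass as a genus either, with counts in 5 mice of each group (adjusted p = 1.00). A different sequence led in each group at 8 dpi, and only that of the EAE mice passed. One sequence was at 0.783 to 12.5% in 5 EAE mice and in no CFA mouse (adjusted p = 0.0238). The sequence that led in CFA mice was in 5 CFA mice, at 0.645 to 1.82%, and in 1 EAE mouse at 0.774% (adjusted p = 0.663). They differed at 7 of 403 bases. At -2 dpi the first had been found in 1 EAE mouse and 0 CFA mice. The second had been found in 5 EAE and 2 CFA mice, the opposite of 8 dpi. In Oscillibacter, of the Oscillospiraceae, a sequence was seen in 2 EAE mice and no CFA mouse (adjusted p = 0.0328). It was at 3.84% in mouse 551, a library set apart above, and at 1.26% in mouse 556. Another sequence was seen in 5 CFA mice and no EAE mouse (adjusted p = 0.0307). They differed at 2 of 404 bases. The first had been found in 5 CFA and 4 EAE mice at -2 dpi and the second in 0 and 2. These sequences were singled out after their values were seen, except the first of Ruminococcaceae_UCG-014. Roseburia gave 2 sequences lower in EAE mice, named Roseburia 14-2 and 14-2-A2. The first was at up to 2.48% in 5 CFA mice and the second at up to 4.22% in 3 CFA mice. Both were at 0 in the EAE mice (edgeR, adjusted p = 0.0214 and 0.0238). The names were not absent from EAE mice, since a further Roseburia sequence carried both of them. It was found in 4 CFA mice and in 3 EAE mice at 8 dpi, with a mean of 1.71% in EAE mice. At -2 dpi the first had been found in 5 CFA mice and 1 EAE mouse, with means of 1.46 and 0.375%. The second had been found in 3 CFA mice and 1 EAE mouse, with means of 0.742 and 0.518%. A difference in presence thus preceded immunization. A chief sequence of Ruminiclostridium, Ruminiclostridium straminisolvens, was found in 2 EAE mice at up to 3.17% (adjusted p = 0.0238).

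Whole communities of genera differed between the groups at 8 dpi. On Bray-Curtis distances treatment took up 28.4% of the variation at 8 dpi (pseudo-F = 3.97, exact permutation test, p = 0.00649) and 18.6% at -2 dpi (pseudo-F = 2.29, p = 0.0541, exact permutation test). The pseudo-F at 8 dpi was 7.65 without mice 551 and 555 (p = 0.00476, exact). At -2 dpi the groups did differ on Aitchison distances (pseudo-F = 2.16, p = 0.00866, exact permutation test) and on shared presence (Jaccard, 2.15, p = 0.0108, exact), so the groups were not alike before immunization. The mean distance was 0.605 within EAE mice, 0.389 within CFA mice and 0.641 between the groups, and without mice 551 and 555 the distance within EAE mice was 0.390. The distance of a mouse from its own sample at -2 dpi, a measure added after seeing the data, was 0.583 ± 0.123 (SD, n = 6) for EAE mice, from 0.434 to 0.725. It was 0.344 ± 0.125 (SD, n = 6) for CFA mice, from 0.154 to 0.506. The difference of 0.239 had a p of 0.0130 in an exact permutation test, and 0.0571 without mice 551 and 555.

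**Figure D5:**
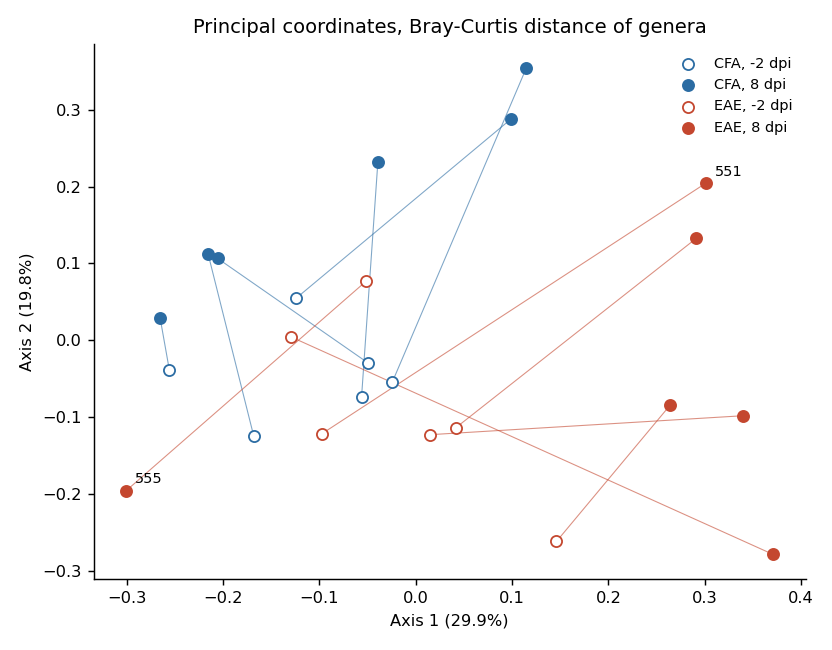
Principal coordinates of Bray-Curtis distances between 24 samples by genus, with axis 1 at 29.9% and axis 2 at 19.8% of the positive eigenvalues, open points for -2 dpi, filled points for 8 dpi and a line joining the samples of a mouse. The EAE samples at 8 dpi, with mice 551 and 555 marked, spread more widely than the CFA samples.

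No measure of alpha diversity passed the test at 8 dpi. The Shannon index over sequences was 2.44 ± 0.829 (SD, n = 6) in EAE mice and 2.59 ± 0.570 in CFA mice (exact permutation test, p = 0.749). The inverse Simpson index was 9.74 ± 5.83 and 7.37 ± 5.11 (p = 0.476, exact permutation test, n = 6). The number of genera was 21.8 ± 12.2 and 30.5 ± 3.51 (p = 0.167, exact permutation test, n = 6), and the number of sequences 29.7 ± 18.3 and 46.7 ± 8.59 (p = 0.0714). Without mice 551 and 555 the mean number of genera in EAE mice was 29.5. The adjusted p over 12 such comparisons was 0.684 or more. Body weight at 8 dpi was 16.5 to 18.9 g in EAE mice and 17.6 to 18.9 g in CFA mice, with means of 17.45 ± 1.00 g and 18.3 ± 0.426 g (SD, n = 6). The difference of -0.867 g did not pass 0.05 (exact permutation test, p = 0.0931), and lay between -1.16 and -0.677 g when single mice were left out. It passed 0.05 without EAE mouse 556 (p = 0.0476, exact) or 557 (p = 0.0238, exact).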

How the data were processed

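Feces of EAE and CFA mice at 8 and -2 dpi were profiled by 16S amplicon sequencing. ASVs had been inferred with DADA2. The authors deposited read counts for each ASV and library, neither rarefied nor scaled, and curated taxonomic names. Of 89 samples, 1 had a total of 0, and 88 were used. Libraries of the 24 samples held 9202 to 83614 counts.

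Counts were summed by family and genus. Primers were removed from 2274 of 2295 ASVs that held both, which left 501 sequences, 31 of which carried more than 1 genus name. The quasi-likelihood test of edgeR 4.0.16 (R 4.3.3) was run on taxa found in 3 or more samples. A joint fit over 15 groups (treatment by day) used TMMwsp factors from genus counts, and p-values were adjusted by Benjamini-Hochberg at 0.05. Percents, diversity, weight and the distance of a mouse from its own earlier sample were compared by two-sided exact permutation tests (Python 3.11.15). Distances between the groups were compared by the pseudo-F of a permutational multivariate test, exact and in the upper tail. Fold changes against a group at 0 were taken against the mean of its libraries' floors. Tests were checked on simulated data.

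Mouse numbers in the labels mark the same animal at -2 and 8 dpi. Deviations from group means of samples of the same mouse correlated at -0.218 to 0.274, with a median of 0.0758. Which mice shared a cage is not given. The text names taxa called at 8 dpi or in the change, families with a mean of at least 1% and genera with at least 2% in either group, genera the study names, and the 10 called sequences of lowest p. Members and lists were chosen with earlier results of these data known. Of the genera the study names, Mycoplasma had no counts in the 24 samples, and Muribaculum and Tyzzerella-Clostridium XlVb had none at 8 dpi. Dorea, Coprococcus, Ruminococcus, Candidatus_Soleaferrea/Massilioclostridium, Lachnospiraceae_NA, Lachnospiraceae_NK4A136-Clostridium XlVa and Lachnospiraceae_NK4A136/Hungatella did not pass at 8 dpi (adjusted p of 0.896 or more).

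Alternatives were DESeq2 1.42.0, total counts only, no filter, rarefying to 9202 counts, only the compared groups in the fit, the mouse as a block, centred log ratios (pseudocount 0.5), other distances, ASVs as deposited, and leaving out each mouse. Water controls were not analysed here.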

Additional observations from a re-analysis of the deposited data

Results flagged for a closer look

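In 14 of 81 groups of values tested, a single mouse stood far from the other 5 of its group at 8 dpi. The rule flags about 1 in 20 by chance only for normally distributed values. Here a taxon seen in a single mouse is always flagged, and some genera and families share the same counts. The number flagged is therefore not compared with that rate. In EAE mouse 555, the library of 3 genera, the flagged values were Ruminococcaceae_UCG-014 at 48.0%, Lactobacillus and with it Lactobacillaceae at 39.5%, and Eubacterium and with it Eubacteriaceae at 12.5%. In EAE mouse 551, the library of 10 genera, it was Lachnospiraceae_NK4A136-Clostridium XlVa at 22.0%. Values of taxa seen in a single EAE mouse were 1.68% for Lachnospiraceae_UCG-001 in mouse 556, 0.175% for Longibaculum/Candidatus Stoquefichus in mouse 557, and 2.48% for Barnesiella and Porphyromonadaceae in mouse 553. In CFA mice the outlying values were 0.675% for Anaerotignum-Clostridium XlVb, 0.715% for Clostridiaceae and 17.0 for the inverse Simpson index, all in mouse 544, and 5.52% for Ruminococcus in mouse 548.

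For 8 genera the change from -2 to 8 dpi was not the same in EAE as in CFA mice (edgeR). The adjusted p was 9.17e-06 for Turicibacter, 0.000902 for Ruminiclostridium, 0.000950 for Clostridium_sensu_stricto_1, 0.00133 for Romboutsia, 0.0126 for Blautia, 0.0168 for Longibaculum/Candidatus Stoquefichus, 0.0357 for Stomatobaculum and 0.0404 for Anaeroplasma. Among families it was 0.00430 for Peptostreptococcaceae. With the mouse as a block, Longibaculum/Candidatus Stoquefichus could not be fitted and none of the other 7 genera passed, at adjusted p of 0.153 to 0.621, nor did Peptostreptococcaceae (0.0907). Longibaculum/Candidatus Stoquefichus rested on 1 mouse on each day, EAE mouse 557 at 8 dpi and a CFA mouse with 0.453% at -2 dpi.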

How the results depend on the processing

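Over the taxa named and the settings tried, 1609 of 1755 values kept their side of the threshold, 131 no longer passed and 15 newly passed. Of the calls, 0 reversed direction. Some taxa that did not pass changed sign when single mice were left out. At 8 dpi the log2 fold change ran from -0.244 to 0.232 for Ruminococcaceae and from -0.422 to 0.272 for Lachnospiraceae_NA. Leaving out single mice at 8 dpi gave 8 to 15 genera, 7 to 10 families and 11 to 19 sequences at 8 dpi. For the change it gave 5 to 8 genera, 1 to 2 families and 15 to 19 sequences, and for body weight -1.16 to -0.677 g. Counts moved by over 1.5 times for genera at 8 dpi without EAE mice 550, 551 or 555 (8 each), EAE mouse 553 or CFA mouse 545 (11 each), and for the change without EAE mouse 557 (5 genera) and without EAE mouse 553 or CFA mouse 544 (2 families). Of the 17 genera, 8 kept their call whichever mouse was left out. Without both mice 551 and 555, 7 genera and 7 sequences passed at 8 dpi and 10 sequences for the change. By counting error alone, a count of 0 allows a share of up to 0.0326%, in the library of mouse 555. The lowest count above 0 in that library was 1147, or 12.5%, so a 0 there does not bound a genus at that share.

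With the mouse as a replicate block, the change gave 0 families, 0 genera and 0 sequences, at unadjusted p below 0.05 for 3, 6 and 7, with lowest adjusted p of 0.0907, 0.101 and 0.201. It could be fitted for 16 families, 50 genera and 93 sequences, since taxa at 0 in most pairs drop out. DESeq2 gave 8 families, 15 genera and 35 sequences for the change, 4 families, 12 genera and 50 sequences at -2 dpi, and 8 families, 19 genera and 65 sequences at 8 dpi. Of the edgeR calls at 8 dpi, DESeq2 shared 8 of 9 families, 17 of 17 genera and 16 of 16 sequences. With only the compared groups in the fit, 1 family and 1 genus passed at -2 dpi and 44 sequences at 8 dpi. With ASVs kept apart by primer variant 43 passed at 8 dpi, and with no filter 7 sequences for the change.

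In exact permutation tests of a centred log ratio, 1 family and 4 genera passed at 8 dpi and 3 genera for the change. Without mouse 555, 1 family and 0 genera passed at 8 dpi, and 4 families and 3 genera for the change. Without both mice 551 and 555, 3 families passed at 8 dpi. The community difference at -2 dpi was a pseudo-F of 2.16 on Aitchison, 2.15 on Jaccard and 2.38 on Bray-Curtis distances of sequences. The pseudo-F at 8 dpi without mouse 555 was 6.16. Without that mouse, differences of EAE minus CFA at 8 dpi were 0.141 in the Shannon index, 3.82 in the inverse Simpson index, -4.90 genera and -11.7 sequences, and those of the change 0.130, 3.87, -2.83 and -9.13. The cause of these shifts was not tested.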

Other observations

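Later samples of the same groups gave further values, without tests. Turicibacter had counts in 3 of 6 CFA mice at 14 dpi, at up to 3.30%, in 5 of 6 at 19 dpi and in 5 of 5 at 29 dpi, at 15.8 to 48.6%. Romboutsia was at 0 in the CFA mice at 14, 19 and 29 dpi, and had counts in 5 of 5, 6 of 6 and 5 of 6 EAE mice on those days, at up to 10.5%. Ruminiclostridium, seen in 3 of 6 EAE mice at 8 dpi, had counts in 5 of 5 EAE mice at 14 dpi, at 3.00 to 12.3%. Stomatobaculum remained at 0 in the EAE mice sampled at 14, 19 and 29 dpi. Lactobacillus was at 0.258 to 2.34% in EAE mice and 14.5 to 37.6% in CFA mice at 14 dpi. EAE mice carry other numbers in the labels from 14 dpi on, so these samples were not paired with those of 8 dpi.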
